A study of Rattus norvegicus with 4 samples.

Results

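The macrophages of the rat anterior pituitary that carry complement C1q were 541 of 7861 cells (6.88%, exact Clopper-Pearson 95% interval of 6.33 to 7.46%). Cells came from 10X Genomics 3′ libraries of dispersed anterior pituitary tissue of Sprague Dawley rats, with the posterior and intermediate lobes removed. One pool held 4 glands of diestrous females at postnatal day 44 and the other held 4 glands of males at postnatal day 59. Each pool was run in 2 lanes, so the 4 lanes are technical replicates, and sex cannot be told apart from age or from pool. The labels name no treatment and no transgene.

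The cells were chosen by measured values. A cell needed at least 3 UMIs (unique molecular identifiers, each standing for 1 captured mRNA molecule) summed over the leukocyte genes *Cd53*, *Tyrobp*, *Fcer1g* and *Laptm5*, with at least 2 of the 4 found, and at least 5 UMIs summed over *C1qa*, *C1qb* and *C1qc*. In addition, *Gh1* had to stay under 5%, *Prl* and *Pomc* under 2% and *Cga* under 1% of the UMIs of the cell. Because these genes made the choice, their levels are given as a description. The female lanes held 121 such cells (6.48% of the lane, 5.40 to 7.69%) and 134 (7.20%, 6.07 to 8.47%), and the male lanes held 152 (7.43%, 6.33 to 8.65%) and 134 (6.43%, 5.41 to 7.57%). The intervals of the 4 lanes overlapped, and the share was 6.84% in females and 6.92% in males. With 2 lanes against 2 the smallest p of an exact permutation test is 0.33, so no test of the share was made.

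C1q is the recognition molecule of the classical complement pathway. Its A, B and C chains assemble into a bouquet of collagen-like stalks with globular heads that bind antibody on a surface, or the surface of dying cells and of synapses directly. Unlike most complement proteins, which are made by the liver, C1q is made largely by tissue macrophages, including the microglia of the brain. In endocrine glands macrophages lie along the fenestrated capillaries, take up debris and present antigen on MHC class II molecules.

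The macrophages of the 4 lanes (female A, female B, male A and male B) held 827283, 983661, 1085003 and 926971 UMIs, or 3822918 in all, out of lane totals of 18955509, 20312999, 23425817 and 24048021. Their median per cell was 6236, 6720, 6544 and 6627 UMIs, against a median of 8853 over all cells of the series. Levels are given as CPM, the UMIs of a gene per 1000000 UMIs of the cells summed, and a count of 3 UMIs corresponds to 3.63, 3.05, 2.76 and 3.24 CPM in the 4 lanes. Values of different genes are not compared with each other, since only the 3′ ends of the transcripts were read. Intervals and such limits cover counting error only. For genes with no UMI, whether their reads were lost to the annotation was not tested. *Hsp90aa1*, a heat shock gene, also had no UMI in macrophages. For comparison, 78 further cells passed the same leukocyte and hormone limits with under 5 C1q UMIs. They are called C1q-poor leukocytes here, and 25, 13, 22 and 18 of them lay in the 4 lanes. A second class for comparison was 2521 cells with folliculostellate markers, the sustentacular cells of the gland.

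The C1q limit fell in a sparsely filled range. Of the cells that passed the leukocyte and hormone limits, 71 had no C1q UMI, 5 had 1, none had 2 and 2 had 3 or 4, just outside the limit. Just inside, 1 cell had 5 or 6 and 1 had 7 to 10, and these were cells of 29142 and 28031 UMIs in total. A further 10 cells had 11 to 20 C1q UMIs, and 529 had 21 or more. The median macrophage carried 77 C1q UMIs, 538 of the 541 had all 3 C1q genes, and 496 had all 4 leukocyte genes. The hormone limits left out 12 cells that met both other conditions. Over the 4 lanes, *C1qa* stood at 4670, 4514, 3712 and 3776 CPM, *C1qb* at 4858, 4893, 3882 and 3928 CPM and *C1qc* at 4144, 4143, 3565 and 3377 CPM. In all other cells the 3 genes averaged 5.60, 6.45 and 4.74 CPM.

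Markers that took no part in the rule fitted the name of macrophage. *Lyz2*, lysozyme, stood at 14436, 14761, 17226 and 18658 CPM in the 4 lanes, against a mean of 42.4 CPM in all other cells. *Aif1*, the actin-binding protein IBA1 of macrophages and microglia, stood at 3701, 3710, 4083 and 4159 CPM (mean of 3913 ± 242, SD, n = 4 lanes), against 10.0 CPM. *Csf1r*, the receptor for the macrophage growth factor CSF1, stood at 706, 702, 650 and 677 CPM (684 ± 26.1), against 1.53 CPM. For these genes every lane of macrophages lay far above every lane of other cells, and the same held for 15 of the 15 macrophage identity genes read here, whose summed level was 27776 CPM in macrophages and 152 CPM elsewhere (*Adgre1* was not among the genes of the file). Of all 24495 genes with a UMI in any cell, 2806 were above other cells in every lane of macrophages (11.5%).

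**Figure D1:**
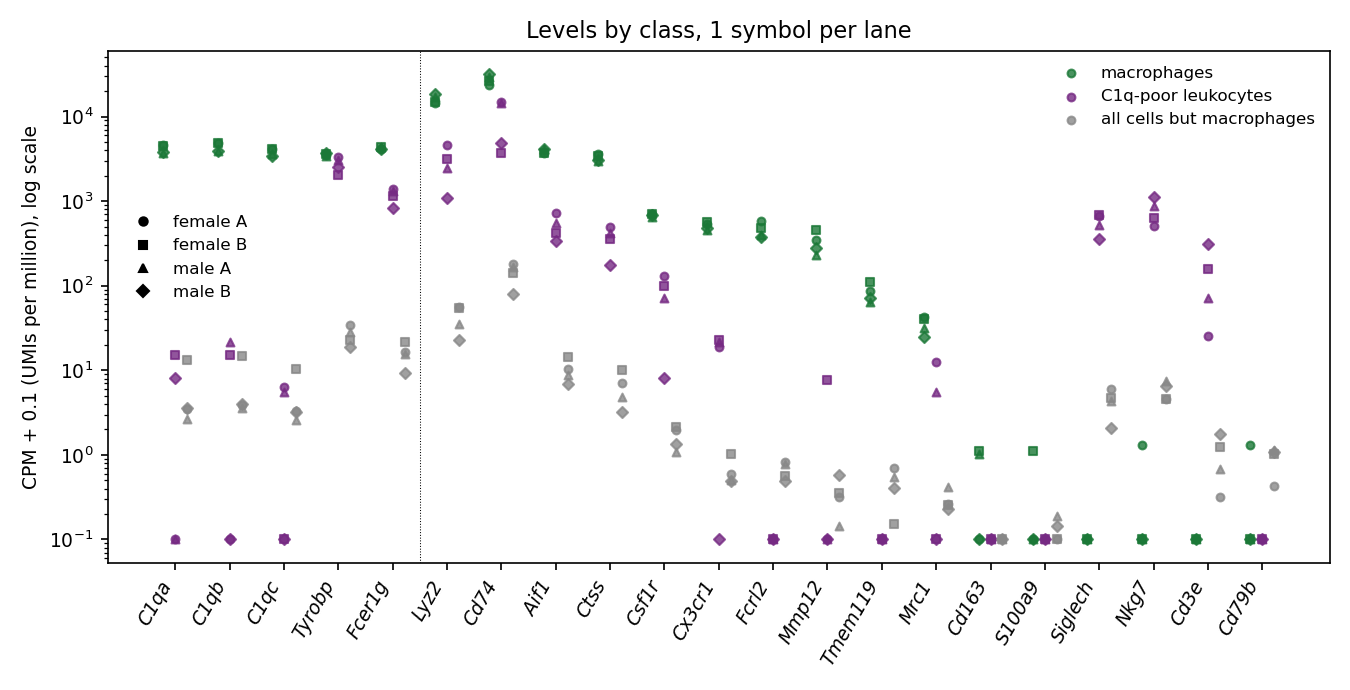
Levels of marker genes in CPM (log axis, with the constant named on the axis added), with 1 symbol per lane, in macrophages, in C1q-poor leukocytes and in all cells but macrophages. Genes to the left of the dotted line were used by the rule. *Lyz2*, *Aif1*, *Csf1r* and *Cx3cr1* lie higher in every lane of macrophages than in any lane of either other class, and *Nkg7* and *Siglech* lie higher in the C1q-poor leukocytes.

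Among 25 genes picked by the ratio of macrophage level to level in all other cells, with at least 100 CPM in every lane, the highest ratio (1311) belonged to *Mmp12*, macrophage elastase. It stood at 345, 455, 232 and 278 CPM, against 0.25 CPM elsewhere. The list also held receptors by which macrophages sense their surroundings. *Cx3cr1*, the receptor for the chemokine fractalkine, stood at 542, 559, 453 and 476 CPM, against 0.555 CPM. *Fcgr3a* and *Fcgr1a* bind immunoglobulin G, *Clec7a* (562 CPM) binds fungal glucans, *Msr1* (143 CPM) is a scavenger receptor and *Trem2* (256, 206, 216 and 200 CPM) senses lipids and apoptotic cells. *Gpr34* (179 CPM), *Cd33* (164 CPM), *Fcrl2*, *Lilra5*, *Klra5-2*, *Ms4a7* and *Slamf9* were further surface proteins of the list, while *Ltc4s* (269 CPM) makes leukotriene C4, *Cybb* (937 CPM) is the catalytic subunit of the phagocyte oxidase, *Ctss* is cathepsin S and *Cxcl2* attracts neutrophils. The list was completed by *Tnfaip8l2*, *Lrrc25*, *Tifab* and LOC102553928. After every cell was thinned to 2000 UMIs, *Cx3cr1* was found in 64.0% of macrophages and in 0.0397% of folliculostellate-marker cells, and unthinned in 90.2% of macrophages. *Lyz2* was found in 98.7% against 2.18% after thinning and in 99.8% of macrophages unthinned. Free RNA was visible in the growth hormone gene *Gh1*, which had a UMI in 99.8% of thinned macrophages and in 99.5% of thinned folliculostellate-marker cells.

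The C1q-poor leukocytes served as the comparison within the leukocytes, and more than C1q differed. *Lyz2* averaged 2848 CPM there, *Aif1* 508 CPM and *Cx3cr1* 15.9 CPM. *Fcrl2*, an Fc receptor-like protein, had 1730 UMIs in macrophages and none in C1q-poor leukocytes, so that it was at least 90.6-fold higher against a limit of 3 UMIs over the class. *Anxa3* (719 against 33.1 CPM) and *Plau*, urokinase (225 against 4.70 CPM), were also among the genes with the highest ratios. In the other direction, the macrophages had no UMI of *Xcl1*, *Il2rb* or *Siglech* and 1 of *Nkg7*. These genes of natural killer cells, T cells and plasmacytoid dendritic cells stood at 645, 216, 554 and 786 CPM in C1q-poor leukocytes. The leukocyte rule genes were nearer between the classes, with *Laptm5* at 755 and 816 CPM and *Tyrobp* at 3568 and 2743 CPM.

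Other cell types of the tissue were looked for by their markers. Of the T and NK cell markers none of 13 was above other cells in every lane, and their summed level was 23.1 CPM in macrophages against 4368 CPM in C1q-poor leukocytes. *Cd3e*, *Cd3g*, *Gzma*, *Gzmb*, *Prf1*, *Cd79a*, *Ms4a1* and *Pax5* had no UMI, and of the monocyte list *S100a8* had none and *S100a9* had 1. No marker of B cells or mast cells and 1 of 8 of neutrophils was above other cells in every lane, and so were 2 of 9 of monocytes and 4 of 12 of dendritic cells. Over all genes with a UMI this share was 11.5%. Endothelial markers summed to 277, 122, 21.2 and 3.24 CPM in the 4 lanes, red cell genes to 4934, 11276, 118 and 3387 CPM and pericyte markers to 0, 5.08, 334 and 1.08 CPM. Endothelial markers were therefore high in the female lanes, and pericyte markers in 1 male lane. In all, 21 macrophages (8, 4, 6 and 3 by lane) carried markers of another type, 5 of them endothelial, 12 folliculostellate and 6 over 1% globin. No doublet caller was run. Of the cell barcodes, 60 cells of the series shared theirs with a cell of another lane, among them 6 macrophages.

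Markers that divide macrophages by residence were unevenly represented. In the list of perivascular and resident macrophages, 9 of 16 genes were above other cells in every lane, against 11.5% of all genes with a UMI. The list summed to 2767 CPM in macrophages and to 3890 CPM in endothelial-marker cells, with *Sepp1* its most abundant gene. *Sepp1*, selenoprotein P, averaged 1876 CPM in macrophages and 2370 CPM in endothelial-marker cells, and *Pf4*, a CXC chemokine, 233 CPM. *Mrc1*, the mannose receptor, and *Lyve1*, a hyaluronan receptor, averaged 34.8 and 35.3 CPM. *Cd163*, the haemoglobin scavenger receptor, had 2 UMIs over all lanes, *Timd4*, a receptor for phosphatidylserine, had 1, and *Vsig4*, *Marco* and *Cd209f* had none. Of the microglia list, 6 of 10 genes were above other cells in every lane (11.5% of all genes), with a summed level of 1153 CPM. The same list summed to 1360 CPM in C1q-poor leukocytes, 1206 CPM in folliculostellate-marker cells and 4436 CPM in endothelial-marker cells, where *Sparc* alone averaged 4400 CPM. *Tmem119* averaged 83.1 CPM, the purine receptor genes *P2ry12* and *P2ry13* 15.6 and 27.3 CPM, and *Sall1*, a transcription factor of microglia, 5.10 CPM.

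Complement genes other than C1q were spread over cell classes. Of those with a place in the list, *Cfp*, the activator properdin, averaged 209 CPM in macrophages, *C5ar1*, the receptor for the anaphylatoxin C5a, 164 CPM and *C2*, a protease of the classical pathway, 160 CPM. *Cfb*, factor B, had 4 UMIs. The proteases *C1r* and *C1s*, which bind C1q to form the C1 complex, were looked at after their values were seen. *C1r* stood at 48.4, 48.0, 45.7 and 47.8 CPM in the folliculostellate-marker cells of the 4 lanes and averaged 13.9 CPM in macrophages. *C1s* stood at 62.1, 51.1, 44.4 and 47.8 CPM there and averaged 3.94 CPM in macrophages. For both proteases the 4 lanes of folliculostellate-marker cells lay above their means in macrophages, whereas the C1q chains averaged between 1.82 and 3.14 CPM in folliculostellate-marker cells.

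The Fc receptor and adaptor list had 13 of 13 genes above other cells in every lane (11.5% of all genes), among them the kinases *Lyn* (291 CPM) and *Syk* (32.9 CPM). Of the lysosome list 18 of 23 genes were above other cells in every lane, with the saposin precursor *Psap* (2137 CPM), cathepsin Z *Ctsz* (1422 CPM), cathepsin B *Ctsb* (1214 CPM) and *Cd68* (764 CPM). Of the chemokine and cytokine list 19 of 25 were, with *Il1b*, the inflammatory cytokine interleukin-1β, at 2483, 1935, 1257 and 1884 CPM and *Ccl6* at 1036 CPM. The growth factors *Csf1* and *Il34*, both ligands of the CSF1 receptor, had 29 and 5 UMIs in macrophages and averaged 19.8 and 24.3 CPM in folliculostellate-marker cells. They were looked at after their values were seen.

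MHC class II genes, which the rule did not use, were abundant in the macrophages. They encode the α and β chains that present peptides to helper T cells (RT1-B and RT1-D in the rat), and *Cd74* encodes the invariant chain that guards their groove on the way to the lysosome. Of the 12 genes of the list, 9 were above other cells in every lane (11.5% of all genes), and the list summed to 44349, 49545, 58345 and 64209 CPM in the 4 lanes. *Cd74* stood at 23503, 26433, 29148 and 31835 CPM, against 142 CPM in other cells. These genes were abundant in C1q-poor leukocytes too, where the list summed to 20977 CPM, against a mean of 54112 CPM in macrophages. *RT1-DMa* and *RT1-DMb* had no UMI, and the limit on such zeros given above holds for them. The promoters of the RT1-B and RT1-D genes are shown because these 4 genes were low together in a subset of the cells, described next. Capitals mark CTGATTGG, the Y box that is bound by NF-Y upstream of MHC class II genes. It was searched on both strands and holds ATTGG, which is the CCAAT box read from the other strand. Each sequence runs 5′ to 3′ on the strand of the gene, from 250 bases before to 50 after the RefSeq start (GRCr8), for *RT1-Ba* at chr20:4576807-4577106 (plus strand), *RT1-Bb* at chr20:4604069-4604368 (minus), *RT1-Da* at chr20:4515165-4515464 (plus) and *RT1-Db1* at chr20:4560113-4560412 (minus).
*RT1-Ba*: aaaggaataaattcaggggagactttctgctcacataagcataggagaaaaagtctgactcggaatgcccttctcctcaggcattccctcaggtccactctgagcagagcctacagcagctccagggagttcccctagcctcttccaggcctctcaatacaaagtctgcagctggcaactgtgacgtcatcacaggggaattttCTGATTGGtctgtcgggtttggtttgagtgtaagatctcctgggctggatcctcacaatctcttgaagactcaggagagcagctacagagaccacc
*RT1-Bb*: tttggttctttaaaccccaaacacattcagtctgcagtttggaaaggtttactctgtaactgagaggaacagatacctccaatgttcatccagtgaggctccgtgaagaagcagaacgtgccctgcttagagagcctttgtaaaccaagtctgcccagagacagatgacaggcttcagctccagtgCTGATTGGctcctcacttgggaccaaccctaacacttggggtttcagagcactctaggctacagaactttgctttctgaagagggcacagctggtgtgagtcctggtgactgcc
*RT1-Da*: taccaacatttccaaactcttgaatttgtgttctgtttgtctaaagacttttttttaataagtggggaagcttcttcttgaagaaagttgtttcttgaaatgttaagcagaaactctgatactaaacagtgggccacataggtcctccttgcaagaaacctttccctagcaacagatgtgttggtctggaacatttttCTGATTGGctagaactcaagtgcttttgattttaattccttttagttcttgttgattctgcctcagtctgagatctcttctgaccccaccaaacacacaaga
*RT1-Db1*: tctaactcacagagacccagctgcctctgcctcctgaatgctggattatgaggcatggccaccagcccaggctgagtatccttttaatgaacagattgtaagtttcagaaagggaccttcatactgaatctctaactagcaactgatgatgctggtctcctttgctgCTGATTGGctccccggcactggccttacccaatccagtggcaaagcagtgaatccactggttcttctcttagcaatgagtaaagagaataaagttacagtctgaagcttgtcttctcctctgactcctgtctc
The motif began 46, 64, 52 and 83 bases before the start in these 4 promoters. It was found in 7 of 10 promoters of the MHC class II list in RefSeq, and in 975 of 27457 promoters of all genes (3.55%). The promoters of *Cd74*, *RT1-DMa* and *RT1-DOb* did not hold these letters in this window.

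Macrophages differed widely from each other in MHC class II. The 5 genes *Cd74*, *RT1-Ba*, *RT1-Bb*, *RT1-Da* and *RT1-Db1* together took a median of 5.58% of the UMIs of a cell, with 0.771% at the 5th and 10.6% at the 95th percentile of cells. By lane the median was 4.07, 5.26, 6.18 and 6.31%. The C1q genes ranged from 0.520% to 2.25% over the same percentiles (median of 1.19%), and *Lyz2* from 0.140% to 3.65% (1.54%). Across the 541 cells, thinned to one depth, the MHC class II share went with that of *Lyz2* (Spearman's rho of 0.35, and 0.19 to 0.44 within lanes). It went weakly against C1q (-0.17, and -0.17 to -0.07 within lanes). *Il1b* and the chemokines went with the immediate early genes (0.54, and 0.45 to 0.62 within lanes). These correlations describe cells that share a library and a dispersion, and no p-value is given.

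*Cst3*, cystatin C, a secreted inhibitor of cysteine cathepsins, separated a small set of macrophages from the rest. It took under 1% of the UMIs in 489 cells, 1 to 1.5% in 19, 1.5 to 2% in 2, 2 to 2.5% in 3, 2.5 to 4% in 2, 4 to 8% in 7 and 8% or more in 19. The highest share below 2% was 1.60% and the lowest above it was 2.13%. The 31 cells at 2% or more (5.73%, 3.93 to 8.04%) are called *Cst3*-rich macrophages. They were set apart after the values were seen, and all that follows on them is a description with no test. All 4 lanes held some, with 9 cells (7.44%), 8 (5.97%), 9 (5.92%) and 5 (3.73%). Their median *Cst3* share was 8.87%, against 0.416% in the other macrophages, and they held 54.2% of all macrophage *Cst3* UMIs.

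**Figure D2:**
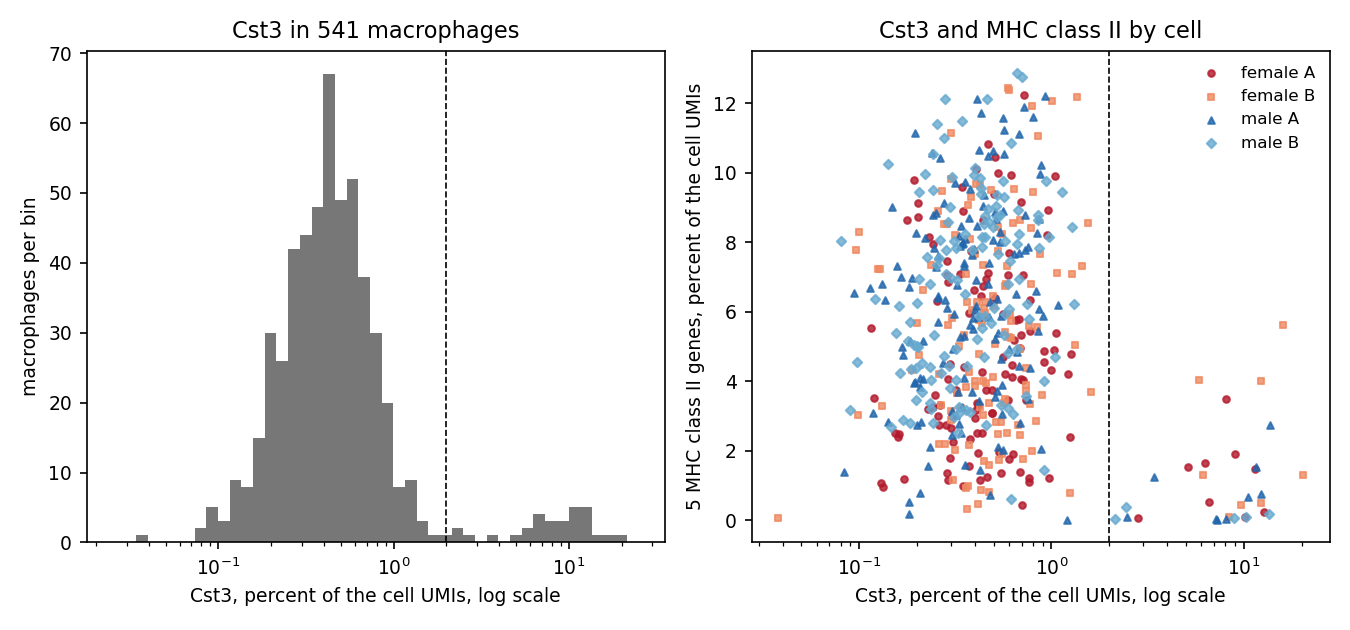
The histogram on the left counts macrophages by the percent of their UMIs in *Cst3* (log scale). On the right each point is 1 macrophage, with the percent of its UMIs in *Cst3* on the horizontal axis (log scale) and in 5 MHC class II genes on the vertical axis. The 31 cells to the right of the 2% line lie mostly at low MHC class II shares and come from all 4 lanes.

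Depth was close in both sets of macrophages. The *Cst3*-rich median was 6841 UMIs and 1959 genes, against 6564 UMIs and 1888 genes in the other macrophages, and mitochondrial genes took 2.43% against 2.72% of UMIs. They carried a median of 129 C1q UMIs against 73.5. None of the 31 carried markers of another type by the rule above, and *S100b* of folliculostellate cells had 1 UMI. *Il33*, an alarmin cytokine, and *Slc1a3*, a glutamate transporter of glia, are also genes of folliculostellate cells. *Il33* was at 105 against 5.56 CPM and higher in every lane, and *Slc1a3* at 123 against 10.3 CPM with overlapping lanes. *Cst3* at 2% or more was also found in 7 of 78 C1q-poor leukocytes, in 43 of 2521 folliculostellate-marker cells in 1 hormone-rich cell and in 2 cells of no class, and in no endothelial-marker or red cell.

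Of the microglia list, 6 of 7 genes were higher in every lane of *Cst3*-rich cells than in any lane of the other macrophages, where 391 of all 7450 genes compared were (5.25%). For *Tmem119* of this list the lanes overlapped (140 against 79.0 CPM pooled). Lower in every lane were 915 of the 7450 (12.3%). Of the perivascular and resident macrophage list, 4 of 10 genes were higher and 0 lower in every lane. *Lyve1* (272 against 19.2 CPM pooled) and *Stab1* (83.3 against 8.35 CPM) were among the 4. Of the phagocytic receptor list, 3 of 9 genes were higher and 2 lower in every lane, and the list summed to 583 against 1067 CPM. Of the Fc receptor and adaptor list, 1 of 13 was higher and 2 lower, which is near the shares over all genes. *Apoe*, the lipid carrier apolipoprotein E, stood at 7423, 6100, 15983 and 10399 CPM in the *Cst3*-rich cells of the 4 lanes and at 527, 459, 495 and 180 CPM in the other macrophages (23.2-fold when pooled). *Trem2* stood at 1374, 937, 1129 and 906 CPM and pooled at 1109 against 162 CPM. For both genes no lane of one set overlapped a lane of the other. *Apoe* had a UMI in 31 of 31 *Cst3*-rich cells and in 121 of 510 others, and *Trem2* in 31 and in 207. *Gpr34* was at 877 against 134 CPM pooled, *P2ry12* at 105 against 10.3 CPM and *Sparc*, a matricellular protein, at 2305 against 236 CPM. *Sall1* had a UMI in 9 of 31 and in 5 of 510 cells, and its lanes overlapped. Of the lysosome list without *Cst3*, which chose the cells, 12 of 21 genes were higher in every lane. Among the cathepsins of the list, *Ctss* was higher at 10540 against 2768 CPM, *Ctsb* at 3668 against 1050 CPM, *Ctsd* at 916 against 109 CPM and *Ctsl* at 671 against 125 CPM. The lanes overlapped for *Ctsz* (1665 against 1401 CPM), *Ctsh* (1249 against 1495 CPM) and *Ctsc* (167 against 255 CPM).

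Of the chemokine and cytokine list, 6 of 20 genes were higher and 4 lower in every lane, against 5.25% and 12.3% of all genes. *Il1a*, interleukin-1α, stood at 935, 906, 237 and 353 CPM in the *Cst3*-rich cells and pooled at 657 against 4.45 CPM, so that the 31 cells held 90.4% of its macrophage UMIs. *Ccl2*, the chemokine that recruits monocytes, stood at 2996, 5086, 783 and 1058 CPM and pooled at 2722 against 33.1 CPM, with 83.9% of its UMIs in the 31 cells. A few cells carried it, since 1 cell held 173 of the 341 UMIs of the second female lane and the 5 cells with the most held 80.3 to 93.9% in each lane. *Ccl2* had a UMI in 19 of the 31 cells and in 29 of the other 510. *Ccl7* (456 against 3.62 CPM), *Ccl3* (5544 against 615 CPM) and *Ccl4* (6636 against 955 CPM) were also higher in every lane, with 36.4% of the UMIs of *Ccl3* and 30.6% of those of *Ccl4* in the 31 cells. The pooled *Ccl7* level rested on the female lanes, since the *Cst3*-rich cells held 29, 72, 2 and 1 of its UMIs by lane. In the second male lane the other macrophages held 11. Of the immediate early genes, 7 of 18 were higher in every lane, among them *Egr1* (614 against 113 CPM) and *Egr3* (434 against 16.4 CPM), while the lanes overlapped for *Fos*, *Junb*, *Atf3* and *Dusp1*. The 4 chemokine and cytokine genes that were lower in every lane were *Ccl6* (438 against 1081 CPM), *Cxcl16* (316 against 734 CPM), *Cxcl13* (4.38 against 200 CPM) and *Il10*, with no UMI in the 31 cells and 25.3 CPM in the others. For *Il1b*, *Cxcl1* and *Cxcl2* the lanes of both sets overlapped.

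MHC class II lay on the other side. *RT1-Bb* stood at 453, 630, 18.2 and 0 CPM in the *Cst3*-rich cells of the 4 lanes and pooled at 320 against 4066 CPM in the other macrophages. *RT1-Da* was at 1293 against 9852 CPM, *RT1-Db1* at 1188 against 9731 CPM, *RT1-Ba* at 574 against 4282 CPM and *Cd74* at 7560 against 29169 CPM. All 8 MHC class II genes compared were lower in every lane than in any lane of the other macrophages, against 12.3% of all genes. The same was true of *Lyz2* (1968 against 17247 CPM), *Clec7a* (39.4 against 594 CPM) and *Fcgr3a* (294 against 1211 CPM). The cells with *Cst3* shares of 2.83 and 3.41% had *Lyz2* shares of 1.83 and 1.32%, while the rest of the *Cst3*-rich set had 0 to 0.352%. *Mmp12* had no UMI in the 31 cells and a UMI in 196 of the other 510, which is at least 26.3-fold lower, and *Klra5-2*, a lectin-like receptor, had none and was at least 23.5-fold lower. *Ifitm1*, an interferon-induced membrane protein, had a UMI in 1 of 31 and in 497 of 510 cells. Of the interferon list 6 of 14 genes were lower in every lane. Pan-macrophage genes were closer, since *Tyrobp* was at 3353 against 3578 CPM and *Aif1* at 3765 against 3933 CPM with overlapping lanes, while *Csf1r* (1324 against 641 CPM) and *Cx3cr1* (815 against 485 CPM) were higher in every lane.

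**Figure D3:**
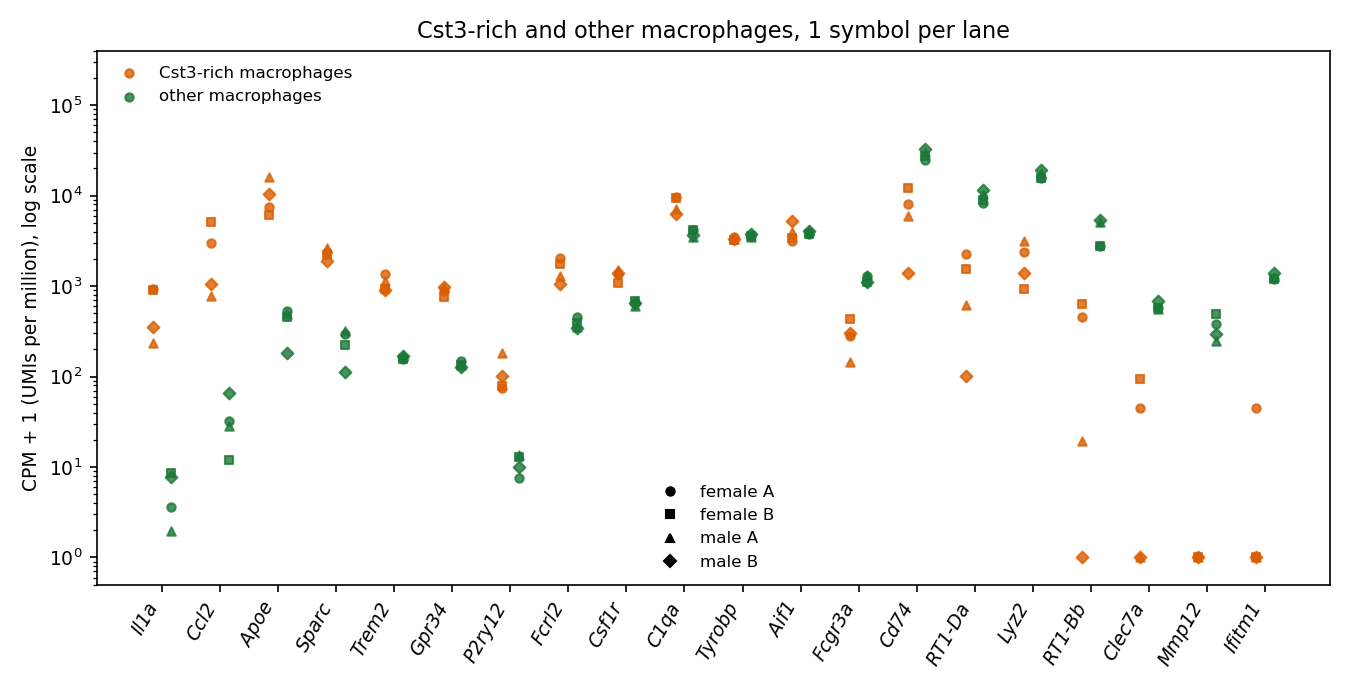
Levels of named genes in *Cst3*-rich macrophages and in all other macrophages in CPM (log axis, with the constant named on the axis added), with 1 symbol per lane. *Apoe*, *Trem2*, *Il1a* and *Ccl2* lie higher and *RT1-Bb*, *Lyz2* and *Ifitm1* lower in the *Cst3*-rich cells of every lane.

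The sexes were then compared within the macrophages, by edgeR's quasi-likelihood test on UMI sums per lane with Benjamini-Hochberg adjustment over 6826 genes. At an adjusted p below 0.001, 9 genes were higher in females (0.132%) and 2 in males (0.0293%), and at 0.05 there were 38 (0.557%) and 10 (0.146%). Both female lanes lay above both male lanes for 1346 genes (19.7%), and both male lanes above both female lanes for 1213 (17.8%). These p-values measure the spread between lanes of 1 pool and not between animals. Of the 11 genes called at 0.001, 6 were above the level of other cells in every lane of macrophages. Of the 48 called at 0.05, 27 were (20 higher in females and 7 in males). The share of all 6826 tested genes above other cells was not counted, so these counts are only a description. In folliculostellate-marker cells 36 of the 48 differed in the same direction as in macrophages, as did 3642 of all 6826 genes (53.4%).

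Of the 8 MHC class II genes tested, 1 was higher in males at 0.001 and 3 at 0.05, and for 7 both male lanes lay above both female lanes. Over all genes these shares were 0.0293%, 0.146% and 17.8%. *RT1-Bb*, with 2552 and 2622 CPM in female lanes and 4839 and 5123 CPM in male lanes, was higher in males by 0.96 ± 0.09 on the log2 scale (SE, adjusted p = 0.000186, edgeR). *RT1-DOa*, a chain of the DO molecule that moderates peptide loading, stood at 23.0 and 23.4 CPM against 68.2 and 78.8 CPM (1.67 ± 0.22). *RT1-Ba* stood at 2982 and 3476 CPM against 4602 and 5010 CPM (0.59 ± 0.10). Both passed 0.05 and not 0.001, with adjusted p-values of 0.00304 and 0.0214 from edgeR. *RT1-Ba* lost its call without the first female lane (adjusted p = 0.0698, edgeR) and at a C1q minimum of 10 UMIs (0.051). *RT1-Da* had 7734 and 8506 CPM in female and 9915 and 10990 CPM in male lanes, and its difference of 0.38 ± 0.09 had an adjusted p of 0.0974 (edgeR). It passed 0.05 with DESeq2 (0.0244) and with library size only (0.0139), and *RT1-Db1* (0.0273) and *Cd74* (0.0313) passed it with library size only. Over the 13 alternatives that kept all lanes, the highest adjusted p was 0.194 for *RT1-Da* and 0.343 for *Cd74* (edgeR or DESeq2). *RT1-Da*, *RT1-Db1* and *Cd74* each passed 0.001 in 2 of these 13. *RT1-Db1* (0.40 ± 0.10), *Cd74* (0.30 ± 0.08) and *Ciita*, the master activator of these genes (1.70 ± 0.40), did not pass in the edgeR test with TMM factors, and *RT1-DOb* stood at 62.9, 63.0, 57.1 and 68.0 CPM. When the 31 *Cst3*-rich cells and the cells with markers of another type were left out, *RT1-Ba* (0.56, adjusted p = 3.47e-07), *RT1-Da* (0.37, adjusted p = 0.00012), *RT1-Db1* (0.37) and *Cd74* (0.29) passed 0.001 as well (edgeR). With only the *Cst3*-rich cells left out, *RT1-Da* (0.0746), *RT1-Db1* (0.0765) and *Cd74* (0.0869) did not pass 0.05, and with only the cells with markers of another type left out these 3 passed 0.05 and not 0.001 (adjusted p-values of 0.00125, 0.0017 and 0.00941, edgeR). *Ciita* passed 0.05 without the cells with markers of another type (adjusted p = 0.0439, edgeR) and without both sets (0.0393). It did not pass without the *Cst3*-rich cells alone (0.103). The median difference of all genes tested was 0.00345.

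Of the 15 RT1 genes outside the class II list that were tested, 2 were higher in females at 0.001 and 4 at 0.05, and both female lanes lay above both male lanes for 9 and below them for 3. Over all genes these shares were 0.132%, 0.557%, 19.7% and 17.8%. This group of MHC class I genes was formed after the values were seen. *RT1-CE4* stood at 2468 and 1937 CPM in female lanes and 1113 and 926 CPM in male lanes, a difference of -1.10 ± 0.12 (adjusted p = 0.000868, edgeR), and *RT1-T24-3* at 481 and 448 against 188 and 163 CPM (-1.39 ± 0.12, adjusted p = 0.00014, edgeR). *RT1-CE4* lost the call at 0.001 with library size only (adjusted p = 0.00241, edgeR) and at a C1q minimum of 10 UMIs (adjusted p = 0.00136, edgeR). *RT1-A1* (4540 and 4218 against 2770 and 2856 CPM) and *RT1-CE5* (972 and 985 against 566 and 526 CPM) passed 0.05. In these 4 genes both female lanes were the higher. In the folliculostellate-marker cells *RT1-CE4* stood at 145 and 145 CPM in female and 62.9 and 62.3 CPM in male lanes. Rat class I genes include near-identical copies between which reads cannot be divided with certainty, so the values of single genes are uncertain. Sprague Dawley rats are outbred, and whether the pools differed in RT1 haplotype was not tested.

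**Figure D4:**
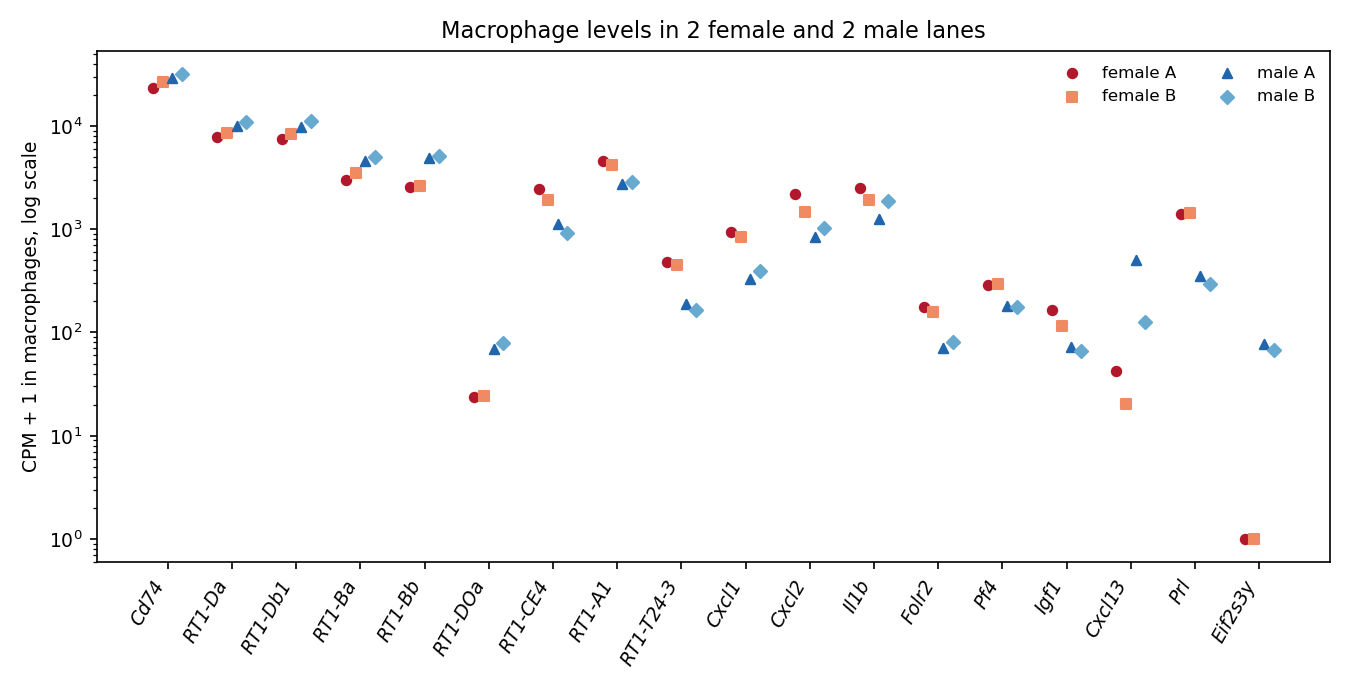
Levels of named genes in the macrophages of each lane in CPM (log axis, with the constant named on the axis added), female lanes beside male lanes. *RT1-Bb* and *RT1-DOa* lie higher in both male lanes, and *RT1-CE4*, *Cxcl1* and *Folr2* in both female lanes.

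Of the 20 chemokine and cytokine genes tested, 2 were higher in females and none in males at 0.001, and 8 and 1 at 0.05. Over all genes these shares were 0.132% and 0.0293%, and 0.557% and 0.146%. *Cxcl1*, which attracts neutrophils, stood at 945 and 846 CPM in female and 332 and 397 CPM in male lanes (-1.28 ± 0.13, adjusted p = 0.000414, edgeR). *Ccl2* stood at 277 and 347 against 65.4 and 107 CPM (-1.86 ± 0.21, adjusted p = 0.000868, edgeR). For both the lanes of the sexes did not overlap, and in folliculostellate-marker cells too *Cxcl1* (337 and 306 against 188 and 131 CPM) and *Ccl2* (110 and 102 against 75.4 and 52.4 CPM) were the higher in both female lanes. *Ccl2* lost its call at 0.001 with library size only (adjusted p = 0.00223, edgeR) and at a C1q minimum of 10 UMIs (adjusted p = 0.00136, edgeR). At 0.05, the edgeR test also called *Ccl3* (-0.62), *Ccl4* (-0.70), *Cxcl2* (-0.95), *Il1a* (-2.09), *Ccl7* (-2.97) and *Pf4* (-0.70) in females. With DESeq2 the adjusted p was 1 for *Ccl7*, 0.285 for *Cxcl2* and 0.081 for *Pf4*, so that these calls were lost. In edgeR *Ccl3* was lost without the second female lane (0.0569) and *Ccl4* without the first (0.0608), and the difference of *Ccl7* ranged from -4.86 to -2.07 when 1 lane was left out. *Cxcl13*, which attracts B cells, was the member higher in males, with 41.1 and 19.3 CPM against 507 and 125 CPM (3.43 ± 0.55, adjusted p = 0.0112, edgeR). Its adjusted p was 0.139 with DESeq2, and its difference ranged from 2.13 without the first male lane to 4.08 without the second. It was found in 50 macrophages, and 1 cell of the first male lane held 137 of its 550 UMIs.

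The immediate early genes, which dispersion of a tissue induces and which went with the chemokines across cells, summed to 17502, 14081, 13765 and 13694 CPM in the 4 lanes. Both female lanes lay above both male lanes for 6 of their 18 genes and the reverse held for none, against 19.7% and 17.8% of all genes, and their part in the chemokine differences was not tested.

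Some of these differences rested on the *Cst3*-rich cells. The *Cst3*-rich cells supplied 248 and 337 CPM of *Ccl2* in female lanes and 39.6 and 45.3 CPM in male lanes, and all other macrophages supplied 29.0 and 10.2 against 25.8 and 61.5 CPM. Without the 31 cells the difference of *Ccl2* was 1.16 with an adjusted p of 0.561 (edgeR), that is, no longer toward females. Without the 21 cells with markers of another type as well, it was 1.78 and passed 0.05 toward males (adjusted p = 0.0024, edgeR). Few UMIs carried this reversal. The other macrophages held 24, 10, 28 and 57 *Ccl2* UMIs in the 4 lanes, with 32 in a single cell. The cells with markers of another type held 12, 1, 0 and 1. Without the 31 cells the differences of *Ccl3* (-0.09) and *Ccl4* (-0.25) did not pass 0.05, and *Il1a* and *Ccl7* were too low to be tested. *Cst3* itself differed by -0.51 with these cells and by -0.13 without them, which is a description, since the cells were chosen on *Cst3*. *Cxcl1* kept its call without these cells (-1.39, adjusted p = 3.03e-05, edgeR), as did *RT1-Bb* (0.95, adjusted p = 3.03e-05). *Cxcl2* (-0.88) and *Pf4* (-0.97) kept theirs at 0.05. The 31 cells held 2.17, 3.37, 4.17 and 10.9% of *Cxcl1* UMIs in the 4 lanes.

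**Figure D5:**
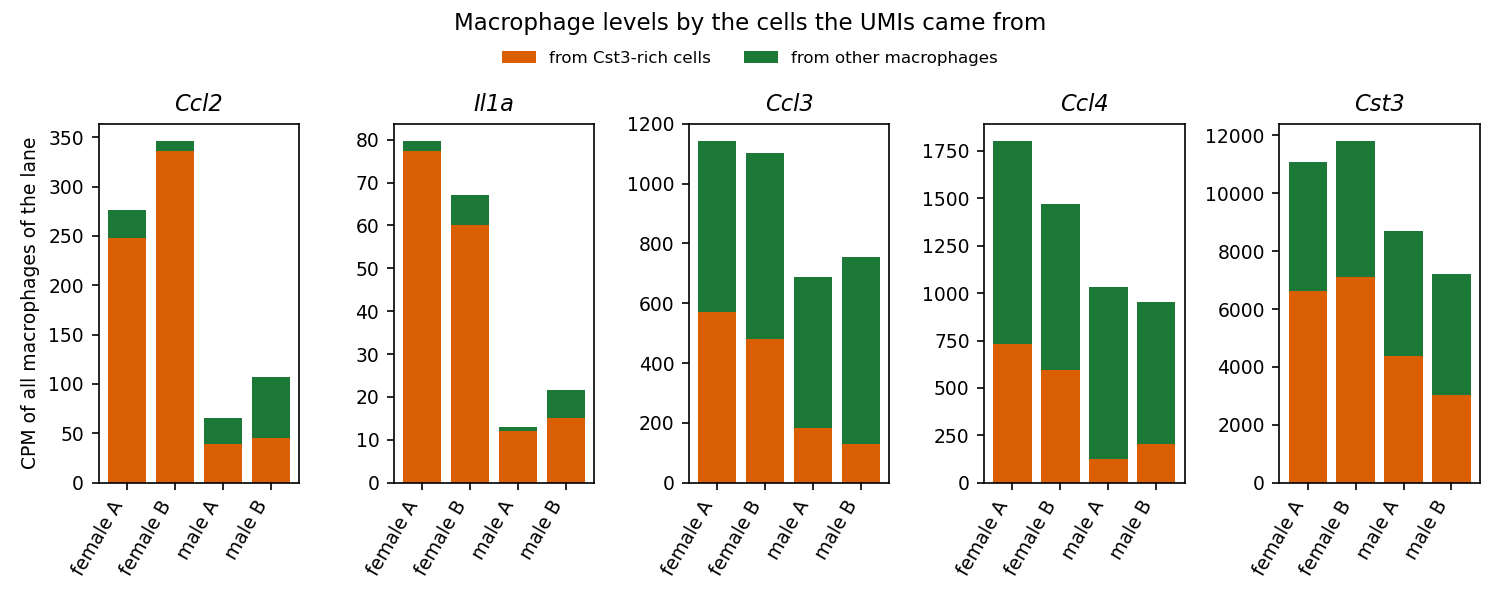
Stacked bars give the level of *Ccl2*, *Il1a*, *Ccl3*, *Ccl4* and *Cst3* in each lane of macrophages in CPM, divided into the UMIs from *Cst3*-rich cells and from all other macrophages. In the female lanes 89.5 and 97.1% of *Ccl2* came from the *Cst3*-rich cells, and in the male lanes 60.6 and 42.4%.

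Genes of resident macrophages were among those higher in females at 0.05. *Folr2*, folate receptor β, stood at 175 and 159 CPM against 70.0 and 79.8 CPM (-1.14 ± 0.16, adjusted p = 0.00339, edgeR). It was found in 28.1 and 22.4% of thinned macrophages in female lanes and 9.87 and 11.9% in male lanes, and unthinned in 49.6, 54.5, 28.3 and 24.6%. Its share among thinned folliculostellate-marker cells was 0.0793%. *Igf1*, insulin-like growth factor 1, stood at 163 and 115 against 71.0 and 65.8 CPM (adjusted p = 0.0247, edgeR). Of the perivascular and resident macrophage list 10 genes were tested, and 3 were higher in females at 0.05 (0.557% of all genes), namely *Folr2*, *Igf1* and *Pf4*. *Folr2* also passed with DESeq2 (adjusted p = 0.0094), and *Igf1* (0.145) and *Pf4* (0.081) did not. *Igf1* did not pass with library size only either (0.0531, edgeR). *C1qa*, *C1qb* and *C1qc*, which chose the cells, differed by -0.28, -0.31 and -0.24 on the log2 scale, given as a description. *Lyz2* differed by 0.31 with an adjusted p of 0.088 (edgeR).

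The remaining genes called at 0.001 included marks of sex and of other cells. *Eif2s3y*, a gene of the Y chromosome, had no UMI in female lanes and 76.5 and 66.9 CPM in male lanes, which checks the assignment of the lanes to the sexes. *Prl*, prolactin, stood at 1400 and 1428 CPM in female and 353 and 291 CPM in male macrophages, and at 25579 CPM in other cells, where it was also higher in females. The rule used *Prl*, so its call is a description. LOC100911498 (129, 124, 0 and 0 CPM), LOC287167 (157, 194, 0 and 3.24 CPM) and LOC103694198 (55.6, 51.8, 5.53 and 5.39 CPM) are loci with no gene name in the file. LOC287167 had no test result, and so no call, without the cells with markers of another type or without the cells in the highest 5% of UMIs. Of the cells with markers of another type, the 6 with over 1% globin lay 2, 3, 0 and 1 in the 4 lanes. Their part in the level of LOC287167 was not tested. Whether the pools differed in their alleles at the LOC loci was not tested either. *Sirpd*, a signal regulatory protein, stood at 52.0, 39.6, 4.61 and 4.32 CPM. *Sirpd* lost its call at 0.001 with library size only (adjusted p = 0.0025, edgeR), and with hormone genes left out (adjusted p = 0.00101, edgeR). The same held at a C1q minimum of 10 UMIs (adjusted p = 0.00136, edgeR). Endothelial genes were higher in females at 0.05 too, namely *Plvap*, *Aplnr*, *Emcn*, *Clec14a* and *Kdr*, and the 4 endothelial markers of the list had their highest sums in the female lanes as given above. The 5 macrophages with endothelial markers lay 3, 1, 1 and 0 in the 4 lanes. Without all 21 cells with markers of another type, 24 genes were higher in females and 8 in males at 0.001 (edgeR).

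Whether a sex difference differed between macrophages and other cells was tested by an interaction term. Against C1q-poor leukocytes no gene of 6260 passed an adjusted p of 0.001 in edgeR (0%) or in DESeq2, and 192 (3.07%) had an unadjusted p below 0.05 in edgeR. Against folliculostellate-marker cells 1 of 12936 passed (0.00773%), and 10 passed 0.05 (0.0773%). That gene was *Cst3*. It stood at 11082, 11822, 8697 and 7219 CPM in macrophages of the 4 lanes and at 1942, 2021, 3950 and 4770 CPM in folliculostellate-marker cells. The female lanes were therefore the higher in macrophages and the male lanes in folliculostellate-marker cells. The log2 difference was -0.51 in the first and 1.08 in the second, and the difference between them was -1.60 ± 0.13 (adjusted p = 0.000152, edgeR). Without the *Cst3*-rich macrophages, which were chosen on this gene, it was -1.21. Those passing 0.05 in addition were *Actb* (0.71), *Oat* (1.58), *Plau* (-2.14), *Nsg1* (-2.79), *Klf2* (1.23), *Tubb2b* (1.28), *Rgs16* (-3.51), *Jun* (0.75) and *Cga* (-1.78), the last of which was used by the rule.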

How the data were processed

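The authors deposited 1 table of UMI counts of 30058 genes in 7861 cells, made per the labels with Cell Ranger 2.1 from 10X 3′ libraries, against an NCBI rat annotation with extended 3′ ends, after equalizing mapped reads between lanes. Counts are whole numbers, and the table includes cells that the study left out later. Lanes were matched to sexes by their numbers of cells. Their replicate numbers are not known. Macrophages and gene lists were chosen with earlier results of these data known. Named genes were the 4 most abundant members of a list, members called in a test, members at or near 0, the highest ratios described in the text and the smallest adjusted p-values at a mean of at least 50 CPM. All others were chosen after their values were seen, among them all genes given for *Cst3*-rich cells, *Sirpd* and all genes called at 0.05 only.

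UMIs were summed per lane and tested with edgeR 4.0.16 (R 4.3.3, quasi-likelihood, TMM normalization, filterByExpr with a minimum count of 10), with DESeq2 1.42.0 as an alternative. Python 3.11.15 served for the rest. The scripts were tested on simulated data. Promoters were taken from RefSeq (GRCr8). Some genes that the naming rule selects are not reported here.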

Additional observations from a re-analysis of the deposited data

Results flagged for a closer look

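*Cst3* differed between the sexes in opposite directions in 2 cell classes. The sex difference in macrophages less that in folliculostellate-marker cells was -1.60 on the log2 scale, with the values of each lane given above. Without the 31 *Cst3*-rich cells the difference in macrophages was -0.13 in place of -0.51, and the difference between both classes was -1.21. These cells were chosen on *Cst3*, so both values are a description.

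In the *Cst3*-rich macrophages the order of the sexes in MHC class II was opposite to that in the other macrophages. The female lanes averaged 541 CPM and the male lanes 9.1 CPM for *RT1-Bb*, 845 and 164 CPM for *RT1-Ba*, 1856 and 243 CPM for *RT1-Db1*, 1916 and 360 CPM for *RT1-Da* and 10132 and 3642 CPM for *Cd74*. The difference between both sets of cells was not tested, and the values rest on 17 female and 14 male cells.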

How the results depend on the processing

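At an adjusted p below 0.001, where edgeR gave 9 genes higher in females and 2 in males, the counts were 17 and 4 with DESeq2, 66 and 49 without a filter on low counts, 24 and 8 without cells that carried markers of another type, 22 and 13 without these and the *Cst3*-rich cells, and 38 and 10 at an adjusted p below 0.05. With a fold of at least 2 in addition, 1 gene was higher in males. Leaving out each lane gave 33 to 58 and 10 to 44 genes, with the lone lane assumed to vary like the others, and all 11 genes were called in every such fit, with DESeq2 and with RLE size factors. With library size only, and with C1q minimums of 10 UMIs or 0.1% of the UMIs of a cell, *Ccl2*, *RT1-CE4* and *Sirpd* lost the call. *Sirpd* also lost it with hormone genes left out. LOC287167 had no test result, and so no call, without cells that carried markers of another type or were in the highest 5% of UMIs. For the difference of sex differences against C1q-poor leukocytes, 0 to 6 genes passed when 1 lane was left out. *Ccl2* reversed to 1.16 without the *Cst3*-rich cells and to 1.78 without these and the cells with markers of another type. The *Cst3*-rich cells held 89.5 and 97.1% of its UMIs in the female lanes, and the cells with markers of another type held 12, 1, 0 and 1 of its 229, 341, 71 and 99 UMIs in the 4 lanes. Over single genes and all alternatives, 398 results kept their side of the threshold, 95 passed it, 10 fell below it, 35 moved and 2 reversed. The alternatives that leave out *Cst3*-rich cells were added after seeing the data. The share of *Cst3*-rich cells was 4.81% at a limit of 4%, and that of macrophages 6.61 to 6.91% under other C1q minimums or without cells with markers of another type.

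No paired analysis was possible because the replicate numbers of the lanes are not known, which holds for the comparison of the sexes. The tests of the difference between cell classes had the lane as a block. With 1 pool per sex, no value has a spread between animals, and the 31 *Cst3*-rich cells held 5 to 9 cells in a lane.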

Other observations

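Of the iron and haem list, 4 of 13 genes were above other cells in every lane of macrophages, and the list summed to 13685 CPM against 4829 CPM. Over all genes the share was 11.5%. The 3 most abundant members are given. *Fth1*, ferritin heavy chain, stood at 10279, 9723, 11063 and 11978 CPM over the 4 lanes, against a mean of 4306 CPM in other cells. *Ftl1*, ferritin light chain, stood at 2785, 2600, 2168 and 2087 CPM against 370 CPM, and *Hmox1*, the haem oxygenase, at 176, 233, 351 and 286 CPM against 15.3 CPM. Every lane of macrophages lay above the mean of other cells for all 3 genes, and their sex differences had adjusted p-values of 0.395, 0.215 and 0.118 (edgeR). *Slc40a1*, the iron exporter, had no UMI.

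Few UMIs were found for receptors of female sex steroids. *Esr1* had 5 UMIs in all macrophages, against a mean of 21.9 CPM in other cells, and *Pgr* had none. *Nr3c1*, the glucocorticoid receptor, stood at 48.4, 48.8, 44.2 and 58.3 CPM, close to its mean of 46.8 CPM in other cells. *Mki67*, a mark of dividing cells, stood at 10.9, 23.4, 15.7 and 5.39 CPM, and its lanes lay on both sides of the mean of 9.60 CPM in other cells. *Spi1*, the transcription factor PU.1, stood at 322, 405, 359 and 334 CPM against 1.54 CPM. *Irf8* averaged 140 CPM in macrophages and 421 CPM in C1q-poor leukocytes.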
